A study of Mus musculus with 4 samples.

Results

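The ErbB receptors and their ligands were followed in E18.5 mouse embryos, in tissue of the dorsal cortex taken shortly before birth. The set holds 10 genes, chosen by name with earlier results of these data known, so counts of members called are descriptive only. They are the receptors Egfr, Erbb2, Erbb3 and Erbb4, the neuregulins Nrg1, Nrg2 and Nrg3, and the EGF-type ligands Hbegf, Tgfa and Egf. Each of the 10 had 1 feature with a single symbol among the 19938 genes named on the array, and each passed the filter on dim genes, which left 13956 genes for the test. The 2 control embryos had the genotype Mek1fl/wt with Mek2-/-, and the 2 mutants had Mek1fl/fl with Mek2-/- and NestinCre, so both groups lacked Mek2 and the comparison is of the loss of Mek1 on that background. NestinCre drives Cre recombinase in neural progenitors and the cells they give rise to. It is named for the mutants only, and its own effect and the loss of Mek1 cannot be told apart. The controls are named wild type in the design text of the series, unlike in the genotype labels.

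ErbB receptors are tyrosine kinases that pair on binding a ligand and signal through RAS, RAF, MEK and ERK, and also through PI3 kinase. Egf, Tgfa and Hbegf bind Egfr, which need not be their only receptor. The neuregulins bind Erbb3 or Erbb4, or both. Erbb2 has no known soluble ligand and acts as the partner of the other receptors, and Erbb3 has little kinase activity of its own. In the developing cortex Egfr is known from late progenitors that turn to making glia, Erbb4 from GABAergic interneurons, and Erbb2 from radial glia, where it answers to neuregulin. MEK1 and MEK2 are the kinases that activate ERK, so these receptors lie upstream of the deleted genes.

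Values are log2 expression, deposited by the authors after RMA, and differences are mutant minus control on that scale with their moderated standard error. Array medians ranged from 7.11 to 7.13. The arrays differed from each other by a root mean square of 0.149 (the controls) to 0.230 over the genes tested. The 2 mutants lay 0.191 apart, no closer than mutant 2 lay to control 1 (0.178) or to control 2 (0.191). The Xist and Y-linked signals put 1 female and 1 male embryo in each group, so the 2 arrays of a group came from different embryos. Map2k1, the gene of MEK1, was at 8.76 and 8.84 in controls and at 8.50 and 8.73 in mutants, lower by mean but short of the threshold (-0.19 ± 0.09, SE; limma, adjusted p = 0.469). Map2k2, the gene of MEK2, was at 8.57 and 8.47 in controls and at 8.57 and 8.64 in mutants (0.08 ± 0.07, SE; limma, adjusted p = 0.657), and both groups carry its deletion. The sources used here do not say which exons the features read or which were deleted, so these values check the labels only weakly. Of 7 genes of the dorsal cortex and its neurons tested, none was called in limma and 2 had an unadjusted p under 0.05, beside 13.4% of all genes. Tbr1, Neurod6 and Emx1 were at 10.97 to 11.14, 12.02 to 12.11 and 8.66 to 8.85 over the 4 arrays. The 2 were Emx2, at 7.80 and 7.86 in controls and at 6.70 and 7.56 in mutants (-0.70), and Neurod2, with a difference of 0.20.

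Egfr was the only member that passed the test. It fell in the mutants, and no ligand or other receptor passed. The 95% confidence intervals of Erbb2, Nrg2 and Nrg3 also left out 0, so not passing does not show that a level stayed the same. In limma, 1 of the 10 members passed with a lower level and 0 with a higher level (adjusted p under 0.05), beside 1.01% of all genes tested that were lower and 0.0143% that were higher. At an unadjusted p under 0.05 there were 4 members, Egfr and Erbb2 with lower and Nrg2 and Nrg3 with higher means, beside 13.4% of all genes. Controls and mutants were separate in 5 of the 10, beside 44.3% of all genes, a share close to that background. The median difference of the 10 was -0.02, beside 0.01 over all genes tested.

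**Figure D1:**
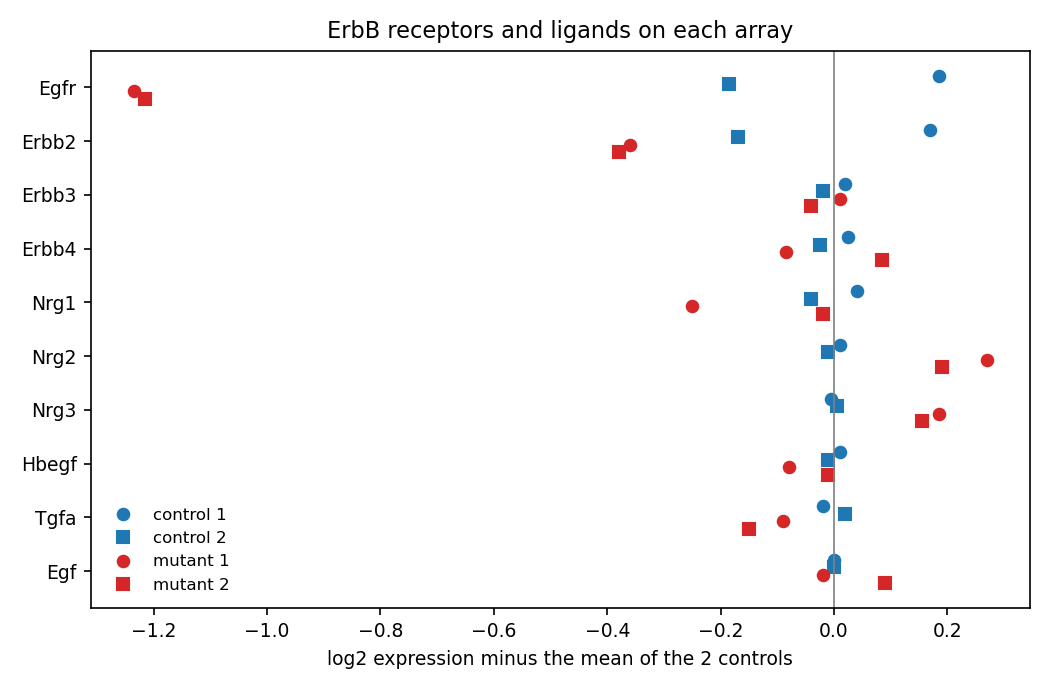
Log2 expression of each ErbB gene on each array, with the mean of the 2 controls taken away (x axis); blue marks are controls, red marks are mutants, circles are replicate 1 and squares replicate 2. The 2 mutants lie over 1 log2 unit to the left for Egfr, while the group means of the other 9 genes differ by -0.37 to 0.23.

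Egfr, a receptor of EGF, TGF-alpha and HB-EGF, was at 7.79 and 7.42 in the controls and at 6.37 and 6.39 in the mutants. Both mutants lay below both controls, and the controls were further apart (0.37) than the mutants (0.03). The means were 7.60 ± 0.26 and 6.38 ± 0.02 (SD, n = 2 each), a difference of -1.22 ± 0.13 (SE; 95% confidence interval -1.54 to -0.91), or 2.33-fold lower (limma, adjusted p = 0.0278). The mutant values stood close to the filter on dim genes (6.16). The call was lost without control 1 (-1.04, adjusted p = 0.0847), with embryo sex as a covariate (adjusted p = 0.0540), when dim genes were kept (adjusted p = 0.0724) and when every feature was tested (adjusted p = 0.271), each in limma. It held under the other 9 alternatives in which Egfr was tested, and the difference ran from -1.41 to -1.04.

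**Figure D2:**
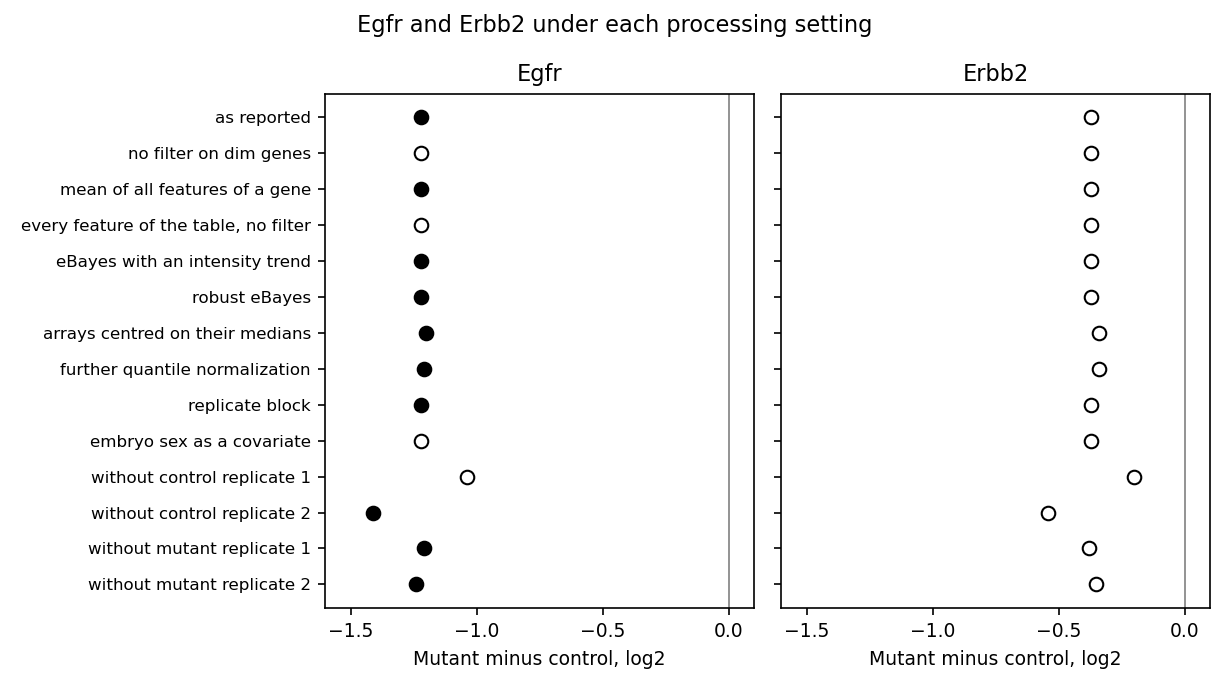
Difference between mutant and control on the log2 scale (x axis) for Egfr and Erbb2 as reported and under 13 alternatives (y axis); filled circles passed at an adjusted p under 0.05 in limma and open circles did not. Egfr stayed between -1.41 and -1.04 with 9 alternatives filled, and Erbb2 stayed between -0.54 and -0.20 with none filled.

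Erbb2, the partner receptor, was at 7.33 and 6.99 in the controls and at 6.80 and 6.78 in the mutants. The groups did not overlap, but control 2 lay only 0.18 above the nearer mutant. The difference was -0.37 ± 0.12 (SE; 95% confidence interval -0.66 to -0.07), which did not pass in limma over all genes (adjusted p = 0.288). It was -0.20 without control 1 and -0.54 without control 2, so 1 control array moved the estimate in either direction. A further feature that the platform annotation assigns to both Erbb2 and Sympk was not counted as a member. It was at 6.17 and 6.18 in controls and 6.19 and 6.25 in mutants.

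Erbb3, the receptor with a weak kinase, was at 6.28 and 6.24 in the controls and at 6.27 and 6.22 in the mutants. These values lay just above the filter on dim genes, and the groups overlapped. The difference of -0.01 ± 0.06 (SE) had a 95% confidence interval from -0.16 to 0.13 (limma, adjusted p = 0.968). Erbb4, a neuregulin receptor, was at 10.40 and 10.35 in the controls and at 10.29 and 10.46 in the mutants. The mutants lay on either side of the controls. The difference was 0.00 ± 0.08 (SE; 95% confidence interval -0.19 to 0.19; limma, adjusted p = 0.999). For Erbb4 the interval leaves out a fall of the size seen for Egfr, whereas Erbb3 lay just above the filter on dim genes, where a narrow interval does not show that its level stayed the same. The sign of both small differences turned with the scaling: Erbb3 differed by 0.01 with arrays centred on their medians, and Erbb4 by -0.00 after further quantile normalization.

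Whether Egfr fell more than the other receptors was read from the difference between the 2 genes on each array, a measure in which only the change between groups has a meaning. Egfr minus Erbb2 was 0.46 and 0.43 in the controls and -0.44 and -0.39 in the mutants, a shift of -0.86. The controls, which were 0.37 and 0.34 apart in the single genes, lay 0.03 apart here. Egfr minus Erbb3 shifted by -1.21 and Egfr minus Erbb4 by -1.22, and the groups did not overlap in any of the 3 pairs. All 3 pairs share the values of Egfr, the member already called lower, so this separation is not independent support. Erbb3 and Erbb4 themselves differed by -0.01 and 0.00, so their pairs restate the difference of Egfr. The exact permutation test gave p = 0.333 (two-sided, n = 2 each) for each of the 3 pairs, the smallest value that 2 arrays against 2 allow. It therefore cannot decide whether Egfr fell more than the other receptors.

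**Figure D3:**
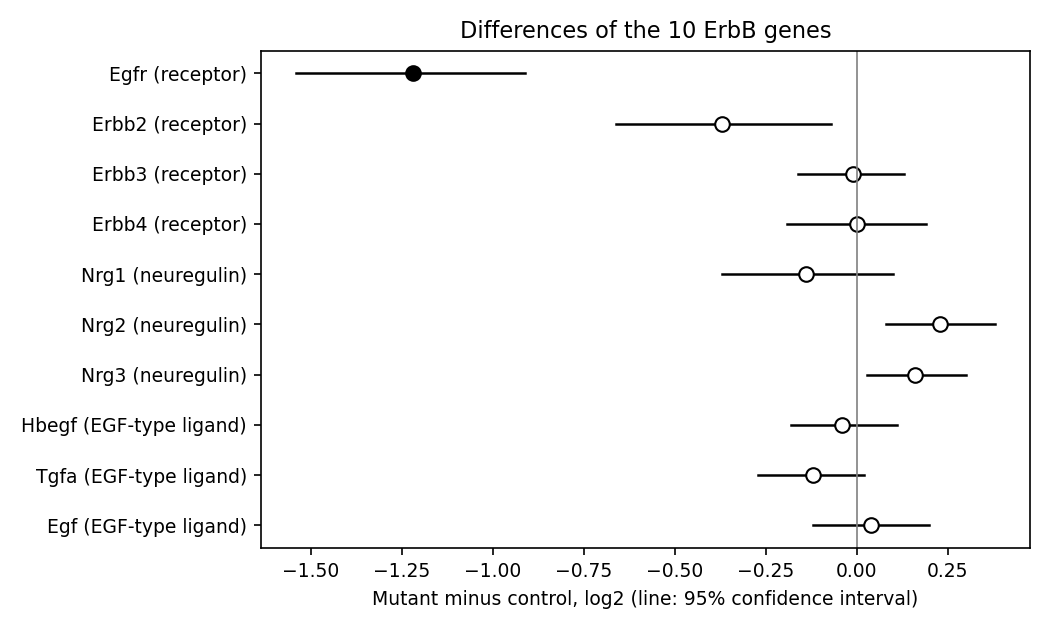
Difference between mutant and control on the log2 scale (x axis) for each of the 10 genes, with lines for the 95% confidence interval; the filled circle passed at an adjusted p under 0.05 in limma and open circles did not. Egfr lies at -1.22, and the other 9 lie between -0.37 and 0.23.

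The stretch before the transcription start is shown for 3 receptors with unlike results, Egfr (called lower), Erbb2 (lower without passing) and Erbb4 (level by mean). ETS factors of the PEA3 group are known targets of ERK signalling, and a single fixed form of the motif they bind was looked for there. The sequences are those of RefSeq (GRCm38.p6), in which 6 of the 10 genes were matched (Egfr, Erbb2, Erbb4, Nrg3, Tgfa and Egf), and each is the 250 bases before the start, written 5′ to 3′ on the strand of the gene. Capitals mark a match on either strand to the PEA3-type ETS element (AGGAAG) or the GC box of Sp1 (GGGCGG), and the TATA box (TATAAA) was searched in the same way. Egfr is at chr11:16751953-16752202 on the plus strand, Erbb2 at chr11:98412234-98412483 on the plus strand and Erbb4 at chr1:69108060-69108309 on the minus strand.
Egfr: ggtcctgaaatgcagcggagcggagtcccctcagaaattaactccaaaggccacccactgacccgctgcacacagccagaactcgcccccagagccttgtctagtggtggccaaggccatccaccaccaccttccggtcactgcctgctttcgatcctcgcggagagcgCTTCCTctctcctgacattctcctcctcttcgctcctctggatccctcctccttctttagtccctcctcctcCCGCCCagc
Erbb2: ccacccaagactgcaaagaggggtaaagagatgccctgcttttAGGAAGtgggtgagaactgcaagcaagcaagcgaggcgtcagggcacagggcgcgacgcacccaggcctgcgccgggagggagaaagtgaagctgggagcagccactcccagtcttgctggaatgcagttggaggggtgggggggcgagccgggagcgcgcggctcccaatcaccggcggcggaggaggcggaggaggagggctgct
Erbb4: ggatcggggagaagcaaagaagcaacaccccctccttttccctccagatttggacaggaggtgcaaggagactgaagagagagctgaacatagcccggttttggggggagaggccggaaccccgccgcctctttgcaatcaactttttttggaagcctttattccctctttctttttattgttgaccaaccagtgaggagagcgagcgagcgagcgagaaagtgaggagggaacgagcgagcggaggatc
Egfr held an ETS element that begins 81 bases before the start and a GC box that begins 9 bases before it. Erbb2 held an ETS element that begins 207 bases before the start and another that begins at base 3 after it, outside the stretch printed. Erbb4 held no match to any of the 3 motifs in the searched 300 bases. Other forms of the ETS motif were not searched, so the receptors are not shown to differ in ETS sites. No matches overlapped in the stretches printed. Over all 32851 RefSeq windows of that length, 35.4% held the ETS element, 35.7% the GC box and 13.6% the TATA box, so a match is common, and it describes letters and not binding. Tgfa and Egf, whose levels did not pass the test, also held an ETS element.

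The neuregulins did not pass the test, and 2 of the 3 had higher means in the mutants. Nrg2, a ligand of Erbb3 and Erbb4, was at 7.35 and 7.33 in the controls and at 7.61 and 7.53 in the mutants. The groups did not overlap and the controls lay 0.01 apart. The difference was 0.23 ± 0.06 (SE; 95% confidence interval 0.08 to 0.38; limma, adjusted p = 0.202), and it ran from 0.19 to 0.28 over the alternatives without passing in any. Nrg3, a ligand of Erbb4, was at 9.28 and 9.29 in the controls and at 9.47 and 9.44 in the mutants. Here too both mutants lay above both controls, by 0.16 ± 0.05 (SE; 95% confidence interval 0.03 to 0.30; limma, adjusted p = 0.302), with a range of 0.15 to 0.18 over the alternatives.

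Nrg1, the neuregulin known for guiding interneurons and for acting on radial glia, was at 8.02 and 7.94 in the controls and at 7.73 and 7.96 in the mutants. Mutant 2 lay between the controls and mutant 1 below them, and the difference of -0.14 ± 0.09 (SE) did not pass in limma (adjusted p = 0.600). Without mutant 1 it was -0.02, and without mutant 2 it was -0.25. The gene makes several isoforms from different starts, and 1 feature cannot separate them.

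The ligands of Egfr differed by less than Egfr did. Tgfa was at 8.30 and 8.34 in the controls and at 8.23 and 8.17 in the mutants, with no overlap and a difference of -0.12 ± 0.06 (SE; limma, adjusted p = 0.453). Hbegf, the heparin-binding ligand, was at 8.61 and 8.59 in the controls and at 8.52 and 8.59 in the mutants. Its groups overlapped, with a difference of -0.04 ± 0.06 (SE; limma, adjusted p = 0.845). Egf was at 6.98 in both controls and at 6.96 and 7.07 in the mutants (difference 0.04 ± 0.06, SE; limma, adjusted p = 0.843). The 95% confidence intervals of the 3 ligands together span -0.27 to 0.20. Of the further EGF family ligands, Btc, Ereg, Epgn and Nrg4 lay under the filter on every array, between 4.62 and 5.96. Their differences ran from -0.16 for Epgn to 0.12 for Btc, and in limma with dim genes kept none passed (adjusted p between 0.463 and 0.859). Areg was not analysed here.

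The other genes of the ErbB pathway were read from a list of 58 that covers those ligands, the shedding of ligands, adaptors and effectors, negative regulators and partners. This list too was chosen with earlier results of these data known, so its counts are descriptive only. Of the 51 tested, 2 were lower and 0 higher in limma (3.92%, beside 1.02% of all genes in both directions), 10 had an unadjusted p under 0.05 (beside 13.4% of all genes), and the median difference was 0.03. Without control 1 or without control 2 no gene of the list was called.

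**Figure D4:**
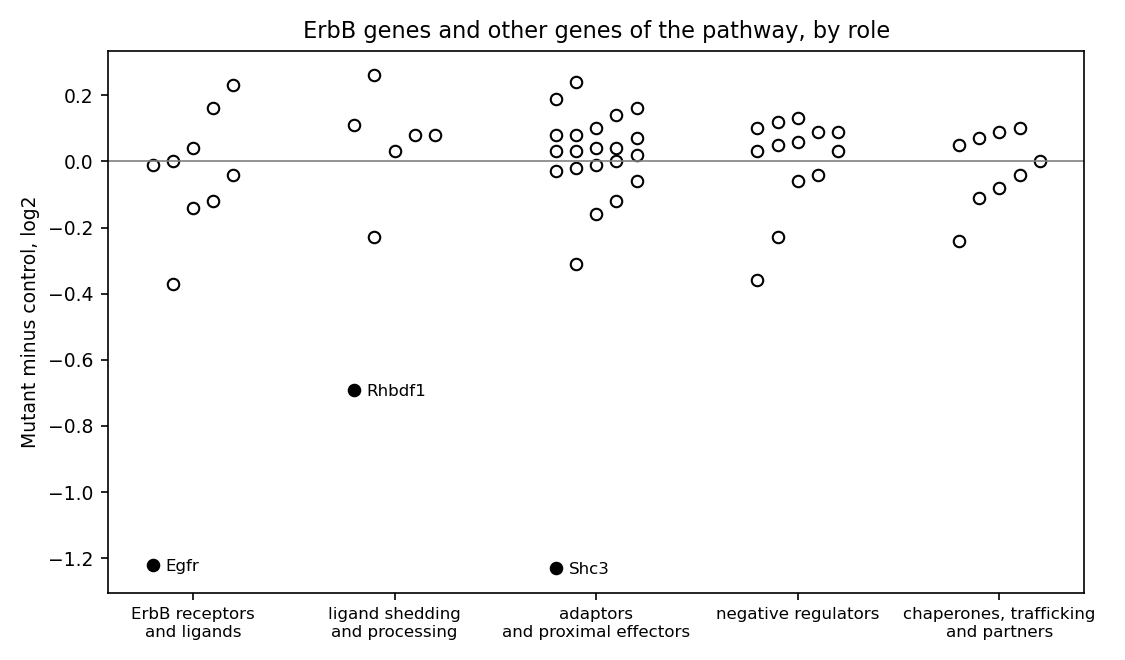
Difference between mutant and control on the log2 scale (y axis) for the 10 ErbB genes and the 51 pathway genes tested, grouped by role (x axis); filled circles passed at an adjusted p under 0.05 in limma. Egfr, Rhbdf1 and Shc3 are the 3 filled points, at -1.22, -0.69 and -1.23, and the rest lie between -0.37 and 0.26.

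Among genes that release or process the ligands, 1 of 7 was called lower in limma, beside 1.01% of all genes tested. By mean, 2 were lower and 5 higher. Rhbdf1, which encodes iRhom1, a cofactor that carries the protease ADAM17 to the cell surface, was at 7.86 and 8.0 in the controls and at 7.25 and 7.22 in the mutants. Both mutants lay below both controls, and Rhbdf1 fell 1.62-fold (difference -0.69 ± 0.07, SE; limma, adjusted p = 0.0271). The call was lost without control 1 (adjusted p = 0.153), without control 2 (adjusted p = 0.164), with embryo sex as a covariate (adjusted p = 0.0592) when dim genes were kept (adjusted p = 0.0724) and when every feature was tested (adjusted p = 0.271), each in limma. Adam17, which sheds Tgfa and Hbegf from the membrane, was at 8.81 and 8.77 in the controls and at 8.53 and 8.60 in the mutants, and its difference of -0.23 ± 0.06 (SE) was short of the threshold (limma, adjusted p = 0.208). Adam19, a protease that cleaves neuregulin, had a higher mean in the mutants by 0.26 ± 0.08 (SE; limma, adjusted p = 0.281), and Adam10, which sheds Egf, differed by 0.03 (limma, adjusted p = 0.863).

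Among adaptors and effectors next to the receptors, 1 of 22 was called lower in limma, beside 1.01% of all genes tested. By mean, 8 were lower and 14 higher. Shc3, a neuronal member of the Shc adaptors that link receptors to RAS, was at 10.16 and 10.27 in the controls and at 9.04 and 8.92 in the mutants (difference -1.23 ± 0.07, SE; limma, adjusted p = 0.00934). The call was lost without control 1 (adjusted p = 0.0603), without control 2 (adjusted p = 0.0678) and when every feature was tested (adjusted p = 0.217) in limma. Grb2 and Sos1, which carry the signal from the receptor to RAS, differed by 0.14 and 0.03 (limma, adjusted p = 0.531 and 0.922). Nck2, an adaptor to the cytoskeleton, differed by 0.24 (adjusted p = 0.164) and Stat5b, a transcription factor that Egfr can activate, by -0.31 (adjusted p = 0.236); limma called neither.

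None of the 13 negative regulators and none of the 9 partners tested passed in limma, with 2 and 1 at an unadjusted p under 0.05, which 13.4% of all genes reached. Lrig1, a membrane protein that promotes the breakdown of ErbB receptors, was at 7.93 and 7.86 in the controls and at 7.51 and 7.57 in the mutants. The groups did not overlap, and the difference of -0.36 ± 0.06 (SE) did not pass in limma (adjusted p = 0.0826); it passed without mutant 2 (adjusted p = 0.0291). Errfi1, the feedback inhibitor of Egfr also called Mig6, was at 9.32 and 9.42 in the controls and at 9.39 and 9.26 in the mutants, a difference of -0.04 (limma, adjusted p = 0.865), and is named after its value was seen. Socs4, which marks Egfr for breakdown, differed by -0.23 (adjusted p = 0.274). Erbin, which binds Erbb2, differed by -0.24 (adjusted p = 0.334) and Usp8, which removes ubiquitin from receptors in endosomes, by -0.11 (adjusted p = 0.480); limma called none of the 3. Without mutant 2 the difference of Erbin was -0.35 and passed (limma, adjusted p = 0.0425), and over the arrays left out singly it ran from -0.35 to -0.14.

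The genes whose 4 values, each centred on the gene's own mean, lay nearest to those of Egfr were Mki67, Cybrd1, Etv5, Bub1 and Aldh1l1, by a root mean square distance of 0.10 to 0.15 over the 4 arrays. Mki67, the Ki-67 proliferation antigen, was at 9.08 and 8.83 in the controls and at 7.92 on both mutant arrays. Chosen for its nearness to Egfr, it was likewise higher in control 1 than in control 2 and nearly level in the mutants. Cybrd1, a membrane iron reductase, differed by -1.38, Etv5, an ETS factor of the PEA3 group, by -1.39, the mitotic kinase Bub1 by -1.07 and the astrocyte enzyme Aldh1l1 by -1.44. All of these genes were chosen for nearness to Egfr, so falls of about its size follow from the choice. Mki67, Bub1 and Aldh1l1 are also on the cell cycle and astrocyte lists that follow.

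Many but not all listed genes of glial cells and of dividing cells were lower beside Egfr. In tissue, fewer cells of a type and less RNA per cell cannot be told apart. The counts that follow stand beside 1.01% of all genes called lower and 13.4% with an unadjusted p under 0.05. These lists were chosen with earlier results of these data known, so an excess over those shares is not independent support. Of 8 astrocyte lineage genes tested, 5 were lower, and the mean level of the 10 on the list was 9.03 and 9.03 in the controls and 7.89 and 8.09 in the mutants. Of 6 genes of oligodendrocyte precursors 3 were lower (7.65 and 7.67 against 6.36 and 6.34). On each of these 2 lists 1 tested gene had a slightly higher mean in the mutants, Gfap of astrocytes (0.04) and Cspg4 of precursors (0.01). The astrocyte genes Gja1 and Slc1a2 had lower means without being called, at 8.29 and 7.66 in mutant 1 and at 9.30 and 8.57 in mutant 2. Of 7 cell cycle genes 5 were lower (8.60 and 8.50 against 7.69 and 7.76), and of 9 radial glia genes 1 was lower and 8 had an unadjusted p under 0.05, with mean levels of 9.29 and 9.35 against 8.86 and 9.02. The lists of neurons of the dorsal cortex (10.30 and 10.27 against 10.22 and 10.32) and of endothelium and pericytes (8.50 and 8.48 against 8.36 and 8.58) had no member called, at an unadjusted p under 0.05 for 2 of 7 and 0 of 7 genes. GABAergic interneuron genes, known from the cells that hold most Erbb4, likewise had 0 of 6 called and 0 at an unadjusted p under 0.05 in limma, with mean levels of 9.61 and 9.74 in the controls and 9.36 and 9.75 in the mutants. Of 4 microglia genes 1 was lower (Fcrls, -0.66). Log2 values from RMA have no zero, so no marker can be read as absent; of these lists Aqp4 and S100b of astrocytes and Aif1 and P2ry12 of microglia had means under the filter on dim genes. The part of these cell types in the fall of Egfr was not tested.

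**Figure D5:**
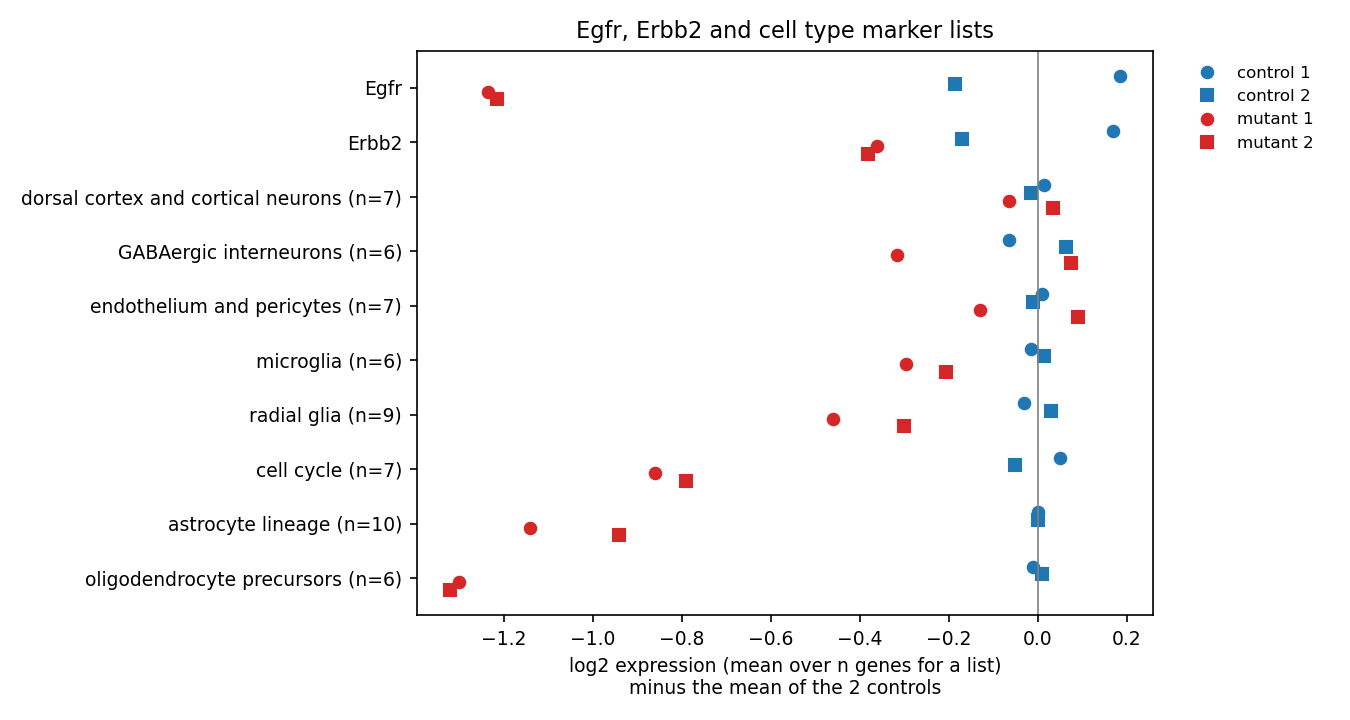
Log2 expression on each array with the mean of the 2 controls taken away (x axis), for Egfr and Erbb2 and for the mean over the n genes of 8 marker lists (y axis); blue marks are controls, red marks are mutants, circles are replicate 1 and squares replicate 2. The mutants lie left of the controls for Egfr, Erbb2 and the glial, radial glia, microglia and cell cycle lists, and on both sides of the control mean for the neuronal and vascular lists.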

How the data were processed

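Dorsal cortex RNA (200 ng per array, per the labels) from 2 control and 2 mutant embryos was measured on single-colour whole-transcript arrays. The authors deposited log2 expression; the submitters' processing notes name RMA. The sources used here give no version, genome build or filter, and base 2 was taken from the values (1.39 to 14.23), the scale RMA writes. Scanner files and detection calls were not used here, and having only 4 arrays limits precision.

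Of 35557 features, 21789 had 1 symbol in the platform annotation, 1621 had several and 12147 were not listed. Symbols were updated by Entrez identifier through RefSeq (21698 matched). The brightest feature stood for the 999 genes with several, and genes whose mean lay under the 30th percentile (6.16) were left out. The comparison of groups used limma 3.58.1 under R 4.3.3, with no trend and no covariate. The fit had 2 residual and 3.31 prior degrees of freedom, with Benjamini-Hochberg adjustment over all 13956 genes. Its code was run on simulated data with equal noise in all genes and changes larger than those of Egfr, Rhbdf1 and Shc3. That run does not show how the fit performs at the sizes and spreads seen here. Nothing in the labels gives a batch, a litter or a scan date. The limma p-values rest on the spread between these samples, with the variance of each gene moderated towards that of all genes tested. The shared replicate numbers are not said to pair embryos, and deviations of same-numbered arrays correlated at -0.16 over genes.

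The members and the lists were chosen with earlier results of these data known. Named are all members, Map2k1 and Map2k2 as the targeted genes, called genes of the pathway list with up to 2 more per role by smallest p, the 5 genes nearest to Egfr, and markers given with their list; genes outside this rule are Grb2, Sos1, Adam10, Errfi1 and the ligands under the filter, named after their values were seen.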

Additional observations from a re-analysis of the deposited data

How the results depend on the processing

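Over the 14 alternatives (13 for Egfr, Erbb2, Erbb3, Nrg2, Egf and Stat5b, which the filter at the 50th percentile left out), 7 of the 10 members and all 10 named pathway genes kept their direction, and no other member than Egfr was called in any. The number of members called lower fell from 1 to 0 with no filter on dim genes, with the stricter filter at the 50th percentile (which removed Egfr), with every feature tested and with embryo sex as a covariate, and lay between 0 and 1 when single arrays were left out. Pathway genes called lower numbered 1 with no filter, 0 with every feature and 1 with embryo sex as a covariate, and 0 to 4 with single arrays left out; those called higher numbered 0 to 1, the 1 being Adam19 without mutant 2. Of all genes, 141 were lower and 2 higher as reported; 15 and 0 without a filter, 0 and 0 with every feature, 217 and 21 with an intensity trend, 17 and 0 with embryo sex, 9 to 731 and 0 to 150 with single arrays left out. Genes called higher numbered 11 under the stricter filter and 1 after further quantile normalization. Deviations of same-numbered arrays had a weak negative correlation over genes (-0.16), and the crossed pairing was added after seeing the data. It is the same fit as embryo sex (0 members and 1 pathway gene called lower, 17 genes in all). The replicate block left Egfr called (-1.22, adjusted p = 0.0481 in limma) and changed no call among the other members and the 10 named pathway genes; of all genes, 113 were lower and 3 higher with it. The marker genes tested were part of that fit, and their values under it are not reported here. Signs turned for Erbb3 (0.01 with arrays centred on their medians, -0.04 to 0.01 with single arrays left out), Erbb4 (-0.00 after further quantile normalization, -0.08 to 0.08 with single arrays left out) and Egf (-0.01 to 0.10). The cause of these changes was not tested, apart from the samples and degrees of freedom that leaving out an array or adding a covariate takes away.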

Other observations

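Egfr and Erbb2 were both higher in control 1 than in control 2, by 0.37 and 0.34 on the log2 scale. Controls differed by at least as much in 0.896% of the genes tested for Egfr (125 genes) and in 1.28% for Erbb2, so these receptors were among the genes that differed most between the 2 control embryos, 1 female and 1 male. In the mutants, also 1 of each sex, the same genes lay 0.03 and 0.02 apart. The controls also differed in Ttr, a gene of the choroid plexus, at 6.67 in control 1 and 9.15 in control 2. For Ttr, mutant 1 minus mutant 2 was -0.67. Folr1 and Aqp1, the other choroid plexus genes tested, differed by 0.01 and -0.08 (control 1 minus control 2). Whether the tissue taken bears on the receptor levels of the controls was not tested.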
